A study of Homo sapiens with 24 samples.

Results

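The tropomyosin genes TPM1, TPM2, TPM3 and TPM4 were followed in the RNA of H1299 cells with and without Δ133p53 isoforms. The members were the rows of the gene count table that carry these 4 symbols, and all 4 were found among 60563 named genes. H1299 is a p53-null non-small cell lung cancer line. RNA of 6 H1299 lines was sequenced in 24 libraries: vector-only control cells (control), cells overexpressing the Δ133p53α isoform from a plasmid (Δ133p53α1, Δ133p53α2 and Δ133p53α8), and cells overexpressing the Δ133p53β isoform from a plasmid (Δ133p53β5 and Δ133p53β10). Each Δ133p53 line was a single clone, so a difference between lines cannot be told apart from a difference between clones. The study set the isoforms against p53-null control cells and against each other.

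The control, the 3 Δ133p53α lines and Δ133p53β10 had 4 libraries each and Δ133p53β5 had 3. A further Δ133p53β library was given to different clones by its label and by the count table, so it was shown by itself and kept out of both clone means. All 24 libraries derived from H1299 cells, and no source stated whether libraries of a line came from separate cultures, so the p-values measured only the spread between these libraries. In bulk RNA, fewer cells with a transcript and less transcript per cell cannot be told apart.

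Tropomyosins are coiled-coil proteins that bind end to end along actin filaments and influence which myosins, severing factors and capping proteins reach the filament. Each gene makes several proteins through alternative promoters and exons, some of them known from muscle and others from the cytoskeleton of all cells. TPM1 and TPM2 encode the alpha and beta chains of muscle as well as stress fibre forms, while TPM3 and TPM4 supply much of the cytoskeletal tropomyosin outside muscle. The counts were summed per gene, so these forms were not separated here.

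On GRCh38, TPM1 (ENSG00000140416) lies at chr15:63042620-63071915 on the plus strand, TPM2 (ENSG00000198467) at chr9:35681992-35690056 on the minus strand, TPM3 (ENSG00000143549) at chr1:154155308-154194648 on the minus strand and TPM4 (ENSG00000167460) at chr19:16067021-16103002 on the plus strand. TPM1 shares its locus with TPM1-AS (ENSG00000259498), a non-coding gene on the opposite strand at chr15:63046034-63049387, and 2645 of its 3354 exon bases also belong to TPM1 exons. A second non-coding gene opposite TPM1, ENSG00000259627, has 691 exon bases, all shared with TPM1 exons. It and the genes overlapping TPM3 and TPM4 were not followed here. The bases before 4 annotated starts are shown, because TPM1-AS differed between lines and TPM1 and TPM2 were the members with the widest ranges. The TPM4 start carried the single CArG box, the site of serum response factor. Each run holds the 250 bases before a RefSeq start on GRCh38.p14, read 5′ to 3′ on the strand of the gene, with GGGCGG on either strand and the CArG box in capitals.

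TPM1, chr15:63048239-63048488, plus strand: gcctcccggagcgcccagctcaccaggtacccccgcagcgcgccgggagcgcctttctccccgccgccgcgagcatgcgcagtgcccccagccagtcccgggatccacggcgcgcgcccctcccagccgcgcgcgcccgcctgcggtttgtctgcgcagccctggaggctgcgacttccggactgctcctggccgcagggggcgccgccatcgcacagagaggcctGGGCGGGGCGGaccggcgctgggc
TPM1-AS, chr15:63049388-63049637, minus strand: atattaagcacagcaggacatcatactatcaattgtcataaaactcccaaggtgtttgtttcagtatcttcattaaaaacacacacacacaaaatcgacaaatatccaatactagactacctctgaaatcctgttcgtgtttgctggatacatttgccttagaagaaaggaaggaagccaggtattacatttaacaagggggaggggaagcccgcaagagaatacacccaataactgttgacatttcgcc
TPM2, chr9:35689926-35690175, minus strand: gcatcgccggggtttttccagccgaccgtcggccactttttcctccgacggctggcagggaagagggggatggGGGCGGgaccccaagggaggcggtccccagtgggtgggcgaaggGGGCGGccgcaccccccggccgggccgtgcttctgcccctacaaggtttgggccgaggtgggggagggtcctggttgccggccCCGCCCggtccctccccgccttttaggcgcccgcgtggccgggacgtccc
TPM4, chr19:16067288-16067537, plus strand: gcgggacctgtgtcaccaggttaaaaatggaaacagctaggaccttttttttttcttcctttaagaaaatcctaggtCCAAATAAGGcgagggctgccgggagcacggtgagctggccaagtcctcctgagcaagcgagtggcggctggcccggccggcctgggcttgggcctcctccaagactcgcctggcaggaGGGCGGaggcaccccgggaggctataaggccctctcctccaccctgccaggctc

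The RefSeq table held 8 such windows for the 4 members. GGGCGG, a core of Sp1 sites, was found on 1 or both strands in all 8 of them and in 42.639% of the 35116 windows of all genes. The TPM2 windows overlap each other and share such a site, and the windows of all genes were not matched for GC content. The CArG box was found in 1 of the 8, the TPM4 window above, beginning 173 bases before the start, and in 1.159% of all windows. The TPM1 window had a GC content of 78.4%, the TPM2 window shown 74.4% and the TPM1-AS window 39.6%, against a median of 58.0% over all windows. The windows of TPM1 and TPM4 shown precede other starts than those of the canonical transcripts, 5742 and 8957 bases away. This TPM1 start lies inside TPM1-AS, and the TPM1-AS start lies inside TPM1. These matches describe letters in the windows and do not show that a factor binds there.

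The libraries held 21531599 to 25381731 counted reads. Within each line the libraries fell into 2 sets: in 12 of them long genes were relatively high, with rank correlations of 0.184 to 0.3 between a gene's deviation from its mean and its exon length, and in the other 12 long genes were relatively low, with correlations of -0.267 to -0.113. They are called the positive and the negative set below. Of the positive set, 3 libraries each came from the control, from Δ133p53α2 and from Δ133p53α8, and 1 each from Δ133p53α1, Δ133p53β5 and Δ133p53β10, so the sets were unequally spread over the lines.

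All 4 members were expressed in every library, and none was near the limit of detection. TPM3 had the most reads, with a lowest level of 338.2, a median of 642.1 and a highest level of 918.6 CPM (reads of the gene relative to all reads of the library, after scaling of library sizes). TPM1 ran from 134.4 to 553.8 CPM with a median of 328.8, TPM2 from 133.1 to 699.3 with a median of 261.6, and TPM4 from 189.2 to 346 with a median of 247.5. The highest library was 5.254 times the lowest for TPM2, 4.121 times for TPM1, 2.716 times for TPM3 and 1.829 times for TPM4. In scaled CPM TPM2 thus had the widest range of the family and TPM4 the narrowest. The scaling factor of library size was 0.7528 in the highest TPM2 library, Δ133p53β10 replicate 3. It was 1.232 in the lowest, control replicate 3, so scaling widened the TPM2 range. For TPM1 the factor of the highest library, Δ133p53β5 replicate 3, was 1.001 and the lowest library was the same. The order of TPM1 and TPM2 therefore depends on the scaling.

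Levels of different genes can be compared only per length, and the order of the family depended on which length was used. Per kilobase of the canonical transcript (1217 bases for TPM1, 1190 for TPM2, 7064 for TPM3 and 2474 for TPM4), the median levels were 270.2 RPKM for TPM1, 219.8 for TPM2, 100 for TPM4 and 90.9 for TPM3. Per kilobase of all annotated exons (14700, 3183, 15130 and 12375 bases), they were 82.2 RPKM for TPM2, 42.44 for TPM3, 22.36 for TPM1 and 20 for TPM4. TPM3 was above TPM1 on the second scale and below it on the first.

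**Figure D1:**
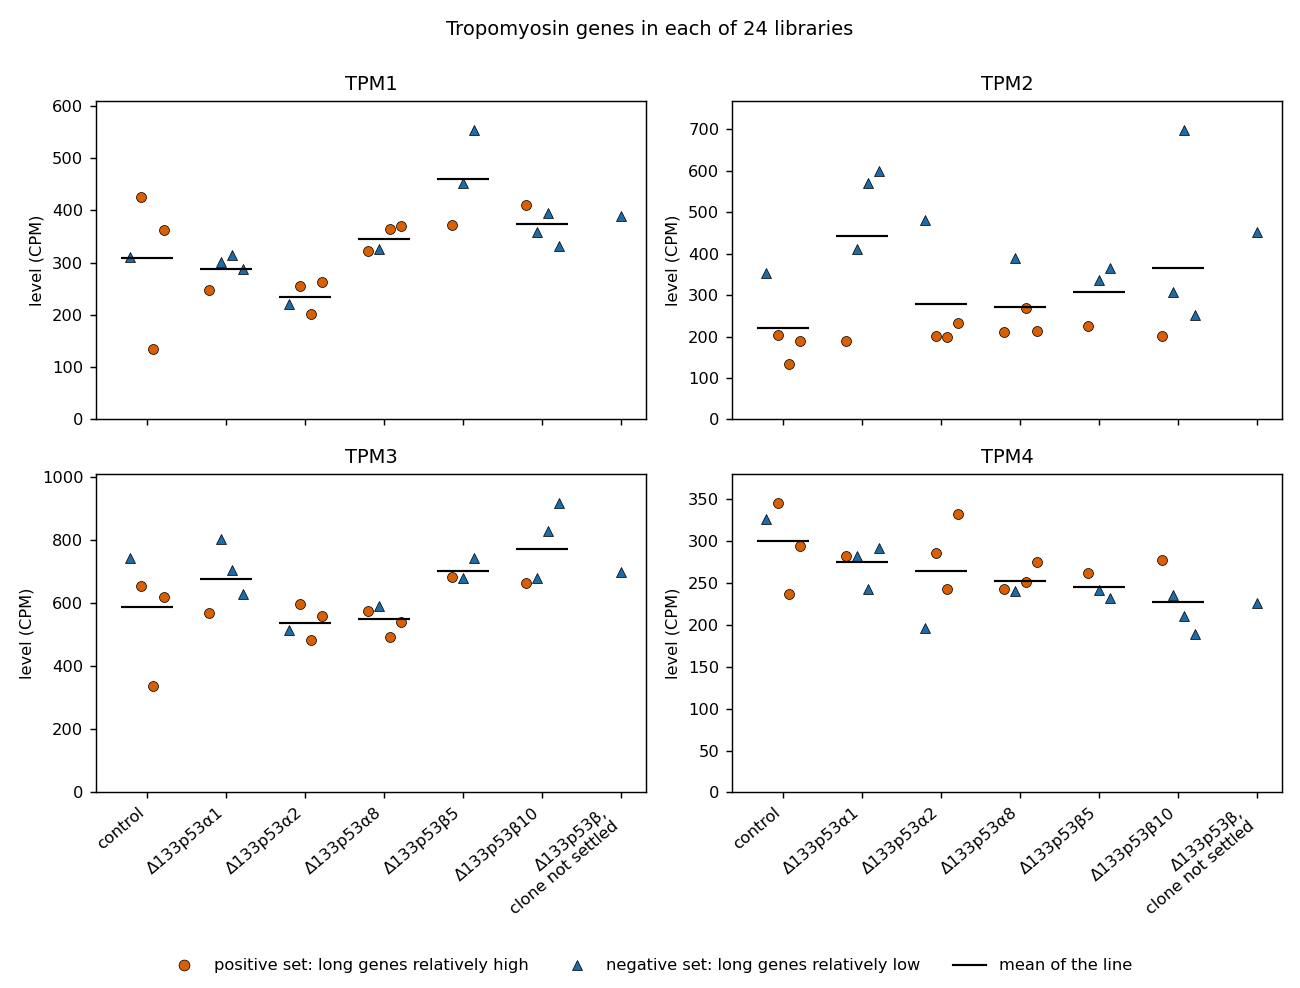
Level of each tropomyosin gene (CPM, linear axis from 0) in each of 24 libraries, by line. Points are libraries, coloured by library set, and bars are means of a line; TPM2 is lower in the positive set in every line, and control replicate 3 is the lowest library for TPM1, TPM2 and TPM3.

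TPM1, the alpha chain gene, was read at 311.4, 426.2, 134.4 and 362 CPM in control replicates 1 to 4. Replicate 3 was the lowest of all 24 libraries for TPM1, and also for TPM2 at 133.1 CPM and TPM3 at 338.2 CPM, while its TPM4 level of 236.7 CPM lay inside the range of the other lines. The 4 genes together had 842.4 CPM in that library and 1127 to 2131 CPM in the other 23. Replicate 3 also had the largest scaling factor of library size, 1.232, which widened this gap. Without scaling, the sum was 1037 CPM in replicate 3 and 1124 to 1896 CPM in the other 23. Δ133p53α2 replicate 1 had 9011 TPM3 reads of 21996884, and control replicate 3 had 9039 of 21722129. Without scaling, Δ133p53α2 replicate 1 was therefore the lowest library for TPM3.

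In the Δ133p53α lines, TPM1 was at 247.9, 300.4, 314.7 and 288.1 CPM in Δ133p53α1. It was at 220.2, 255.3, 202.1 and 261.8 CPM in Δ133p53α2. It was at 322.2, 325.2, 363.7 and 369.9 CPM in Δ133p53α8. All 12 libraries lay between control replicates 3 and 2.

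In the Δ133p53β lines, TPM1 was at 371.1, 452.3 and 553.8 CPM in Δ133p53β5 and at 410.8, 359.1, 393.8 and 332.4 CPM in Δ133p53β10. The library of unsettled clone had 389.8 CPM. The means were 459.1 ± 91.52 CPM in Δ133p53β5 (SD, n = 3), 374 ± 35.11 in Δ133p53β10, 345.2 ± 25.03 in Δ133p53α8, 308.5 ± 125.2 in the control, 287.8 ± 28.71 in Δ133p53α1 and 234.8 ± 28.48 in Δ133p53α2 (n = 4 each). Each line's range overlapped that of the next line in this order.

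TPM1 was higher in the Δ133p53β lines than in the Δ133p53α lines by 0.54 on the log2 scale (SE 0.157, 95% interval 0.209 to 0.863), and this did not pass the test (adjusted p = 0.0533, edgeR's quasi-likelihood test with Benjamini-Hochberg adjustment over 18295 genes). It was the difference of the family nearest to the threshold. In that comparison 0 of the 4 members passed, against 4.72% of all genes tested, or 1.4% when a log2 fold change of at least 1.5 was also asked for. The highest Δ133p53α library had 369.9 CPM and the lowest placed Δ133p53β library 332.4, so the groups overlapped. Adding the library set as a term gave 0.52 (adjusted p = 0.0314), and leaving out control replicate 3, a library outside this contrast, gave 0.54 (adjusted p = 0.00293). Within the positive set the log2 difference was 0.51 (2 against 7 libraries) and within the negative set 0.61 (5 against 5).

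TPM1 passed the test in no line against control, with log2 fold changes from -0.39 in Δ133p53α2 to 0.57 in Δ133p53β5 (SE 0.253, adjusted p = 0.189). These comparisons share the same 4 control libraries, so they do not count as separate evidence. Without control replicate 3, the Δ133p53α2 value was -0.64 (adjusted p = 0.0273) and the difference among all 6 lines passed (adjusted p = 0.00646), against 0.111 with all libraries. The Δ133p53β5 and Δ133p53β10 values were then 0.32 and 0.03, against 0.57 and 0.28 with all libraries, and with the length and GC trend removed they were 0.86 and 0.64. That trend was taken at the length of all annotated exons, 14700 bases for TPM1, against 1217 for its canonical transcript. Values with the trend taken at the canonical length were not computed.

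TPM2, the beta chain gene, was read at 354.1, 204.6, 133.1 and 190.5 CPM in control replicates 1 to 4. It was at 188.6, 411.9, 570.5 and 598.7 CPM in Δ133p53α1. It was at 480.3, 200.5, 198.9 and 231.9 CPM in Δ133p53α2. In each of these lines 1 library stood far from the other 3, above them in the control and Δ133p53α2 and below them in Δ133p53α1.

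TPM2 was at 211.7, 390.1, 270.1 and 212.4 CPM in Δ133p53α8. It was at 224.7, 335.6 and 365.1 CPM in Δ133p53β5. It was at 200.5, 307.2, 699.3 and 253.1 CPM in Δ133p53β10, and at 453.5 CPM in the library of unsettled clone. In Δ133p53α1, Δ133p53α2 and Δ133p53β10 the libraries of 1 clone lay farther apart than the means of the 6 lines, which ran from 220.6 ± 94.22 CPM in the control to 442.4 ± 188.1 in Δ133p53α1 (SD, n = 4 each).

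The split of TPM2 followed the library sets. In all 6 lines every positive-set library was below every negative-set library of the same line, with log2 differences of means from -1.46 in Δ133p53α1 to -0.64 in Δ133p53β5 and a median of -0.97. Over all lines TPM2 had 133.1 to 270.1 CPM in the 12 positive-set libraries and 253.1 to 699.3 CPM in the 12 negative-set libraries. The pattern was shared with many genes, since 17% of all genes tested were lower in the positive set with no overlap in every line. The sets were drawn from all genes with a known length, TPM2 among them, and no test was made of this split.

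The other members followed the sets less evenly. TPM3 was lower in the positive set with no overlap in 4 of 6 lines, TPM1 lower in 2 and higher in 1, and TPM4 higher in 4. In each line 1 of the sets held a single library, so such a separation is easily met. The share of all genes with counts like these was not taken, so they do not set these members apart. Over the 24 libraries Pearson's r between log2 CPM and a library's correlation with gene length was -0.87 for TPM2, -0.55 for TPM3, -0.22 for TPM1 and 0.47 for TPM4, and after line means were subtracted (23 libraries) it was -0.86, -0.37, -0.09 and 0.46. These libraries form 2 clusters on the length axis, so the values describe the split and no more.

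**Figure D2:**
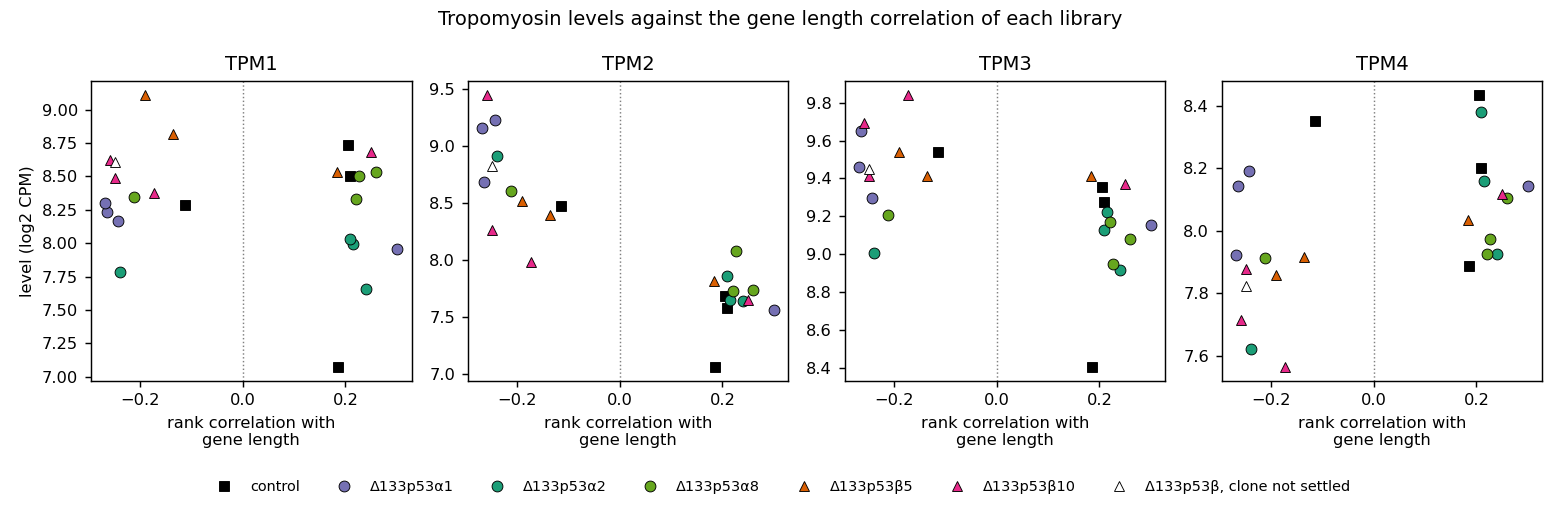
Level of each member (log2 CPM) against the rank correlation of the library's gene deviations with exon length, over 24 libraries marked by line. No library lies between -0.113 and 0.184 on the horizontal axis, and TPM2 is the member whose levels separate most between the sides.

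All annotated exons of TPM2 come to 3183 bases, the 37.6th percentile of genes tested. Its longest transcript has a GC content of 55.3%, the 73.9th percentile. TPM1, TPM3 and TPM4 lie at the 95.5th, 95.7th and 92.7th percentiles of length, and their longest transcripts have GC contents of 45.9%, 44.3% and 46.8%. When each library's smooth trend with length and GC was removed, the standard deviation of TPM2 within lines fell in all 6 lines, for instance from 0.598 to 0.296 (log2) in Δ133p53α2, whereas that of TPM1 and TPM3 rose in all 6 and that of TPM4 rose in the control, Δ133p53α1 and Δ133p53α8 and fell in the other lines.

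TPM2 had a standard deviation within lines of 0.62 on the log2 scale, the 81.8th percentile of the 1976 genes with at least 100 CPM, for which the median was 0.406. The values were 0.348 for TPM1 (39.3th percentile), 0.261 for TPM3 (19.8th) and 0.209 for TPM4 (8.96th). Differences between lines made up 24.7% of the variance of TPM2, against 49.7% for TPM1, 43.2% for TPM3 and 33.4% for TPM4. These shares were not corrected for the number of lines. Such a share is positive even where lines do not differ, and its level in that case was not computed.

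TPM2 had higher fitted values than control in each of the 5 lines, the log2 fold changes running from 0.30 in Δ133p53α8 to 1.00 in Δ133p53α1 (SE 0.417, adjusted p = 0.145), and passed the test in none. Without Δ133p53α1 replicate 1, its only positive-set library, the Δ133p53α1 value was 1.26 (adjusted p = 0.0368), and without Δ133p53α2 replicate 1, its only negative-set library, the Δ133p53α2 value was -0.07 (adjusted p = 0.973). Within the positive set the log2 difference of Δ133p53α1 from control was 0.12 (1 against 3 libraries) and within the negative set 0.56 (3 against 1). Between isoforms the log2 difference was 0.06 (95% interval -0.519 to 0.64, adjusted p = 0.953), and it was 0.02 within the positive set and -0.34 within the negative set.

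The size of the other TPM2 values also moved with the sets. With the library set as a term, the log2 fold change was 0.46 in Δ133p53α1, 0.11 in Δ133p53β5 and 0.22 in Δ133p53β10, against 1.00, 0.48 and 0.73 without it. Within the negative set, which held 1 control library, Δ133p53β5 was level with the control at -0.02 and Δ133p53β10 stood at 0.10, while within the positive set they stood at 0.38 and 0.21. Without Δ133p53α8 replicate 2 the Δ133p53α8 value was 0.07, and without Δ133p53β10 replicate 3 the Δ133p53β10 value was 0.19.

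TPM3, a cytoskeletal tropomyosin gene, was read at 744, 654.8, 338.2 and 618.6 CPM in control replicates 1 to 4. It was at 570.3, 803.9, 705.9 and 629.4 CPM in Δ133p53α1. It was at 514.7, 597, 483.1 and 558.3 CPM in Δ133p53α2. Δ133p53α2 lay inside the control range, and Δ133p53α1 reached above it.

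TPM3 was at 576.4, 591.8, 494.5 and 541.8 CPM in Δ133p53α8. It was at 681.8, 681.6 and 745 CPM in Δ133p53β5. It was at 662.8, 681.6, 827.8 and 918.6 CPM in Δ133p53β10, and at 700.1 CPM in the library of unsettled clone. The Δ133p53β libraries overlapped those of Δ133p53α1 and of the control.

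The TPM3 means were 772.7 ± 122.1 CPM in Δ133p53β10, 702.8 ± 36.54 in Δ133p53β5 (n = 3), 677.4 ± 101 in Δ133p53α1, 588.9 ± 175.3 in the control, 551.1 ± 43.15 in Δ133p53α8 and 538.3 ± 49.85 in Δ133p53α2 (SD, n = 4 otherwise), and neighbours in this order overlapped. The log2 difference between Δ133p53β and Δ133p53α lines was 0.33 (SE 0.131, 95% interval 0.0581 to 0.605, adjusted p = 0.184), with 0.29 within the positive and 0.33 within the negative set. Against control the fold changes ran from -0.13 in Δ133p53α2 to 0.39 in Δ133p53β10 (SE 0.196, adjusted p = 0.196) on the log2 scale. With the length and GC trend removed the values were 0.76 in Δ133p53β10 and 0.62 in Δ133p53α1, against 0.20 before, and without control replicate 3 they were 0.20 and 0.01. Within the negative set Δ133p53α2 stood at -0.53 (1 against 1 library).

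Copies of TPM3 elsewhere in the genome took few reads, and how the authors' counting split reads between TPM3 and its copies is not stated in the sources used here. TPM3P9 had 41 to 96 reads per library, TPM3P5, TPM3P6 and TPM3P8 had 2 to 22, and TPM3P1, TPM3P2, TPM3P3, TPM3P4, TPM3P7 and TPM4P1 were at 0 in all 24 libraries. TPM3 itself had 9011 to 22119 reads. TPM3P9 was the copy that passed the test, in Δ133p53β10, with a log2 fold change of 0.87 (SE 0.201, adjusted p = 0.00771), and it did not pass in pairwise fits or with no filter on low counts.

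TPM4, a cytoskeletal tropomyosin gene with the CArG box shown above, was read at 326.8, 346, 236.7 and 294 CPM in control replicates 1 to 4. It was at 282.9, 282.5, 242.5 and 292.3 CPM in Δ133p53α1. It was at 197, 286, 243 and 333.2 CPM in Δ133p53α2. Both lines overlapped the control.

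TPM4 was at 243.4, 241.2, 251.6 and 275.4 CPM in Δ133p53α8. It was at 262.1, 241.6 and 231.9 CPM in Δ133p53β5. It was at 277.7, 235.3, 210.2 and 189.2 CPM in Δ133p53β10, and at 226.5 CPM in the library of unsettled clone. These levels also overlapped the control, whose lowest library was replicate 3.

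TPM4 had the highest mean in the control, at 300.9 ± 47.89 CPM, followed by Δ133p53α1 at 275.1 ± 22.15, Δ133p53α2 at 264.8 ± 58.31, Δ133p53α8 at 252.9 ± 15.63, Δ133p53β5 at 245.2 ± 15.4 (n = 3) and Δ133p53β10 at 228.1 ± 38.06 (SD, n = 4 otherwise), with overlap between all neighbours. The fitted value was below control in all 5 lines, from -0.13 in Δ133p53α1 to -0.40 in Δ133p53β10 on the log2 scale (SE 0.172, adjusted p = 0.138), except that the Δ133p53α1 value was 0.17 once the length and GC trend was removed. The Δ133p53β5 and Δ133p53β10 values were then -0.07 and -0.10. None passed the test. Between isoforms the log2 difference was -0.16 (95% interval -0.402 to 0.0839, adjusted p = 0.57).

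Over the family, 0 of the 4 members passed the test against control in any line. The share of all genes tested that passed was 4.87%, 5.31% and 4.48% for Δ133p53α1, Δ133p53α2 and Δ133p53α8, and 7.98% and 9.82% for Δ133p53β5 and Δ133p53β10. With the added fold threshold it was 2.59%, 2.8%, 2.5%, 4.2% and 4.7%. For a difference among any of the 6 lines it was 10.1%, and the adjusted p was 0.111 for TPM1, 0.254 for TPM3, 0.408 for TPM2 and 0.464 for TPM4. For TPM2 in Δ133p53β10 the 95% interval of the log2 fold change ran from -0.136 to 1.59.

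**Figure D3:**
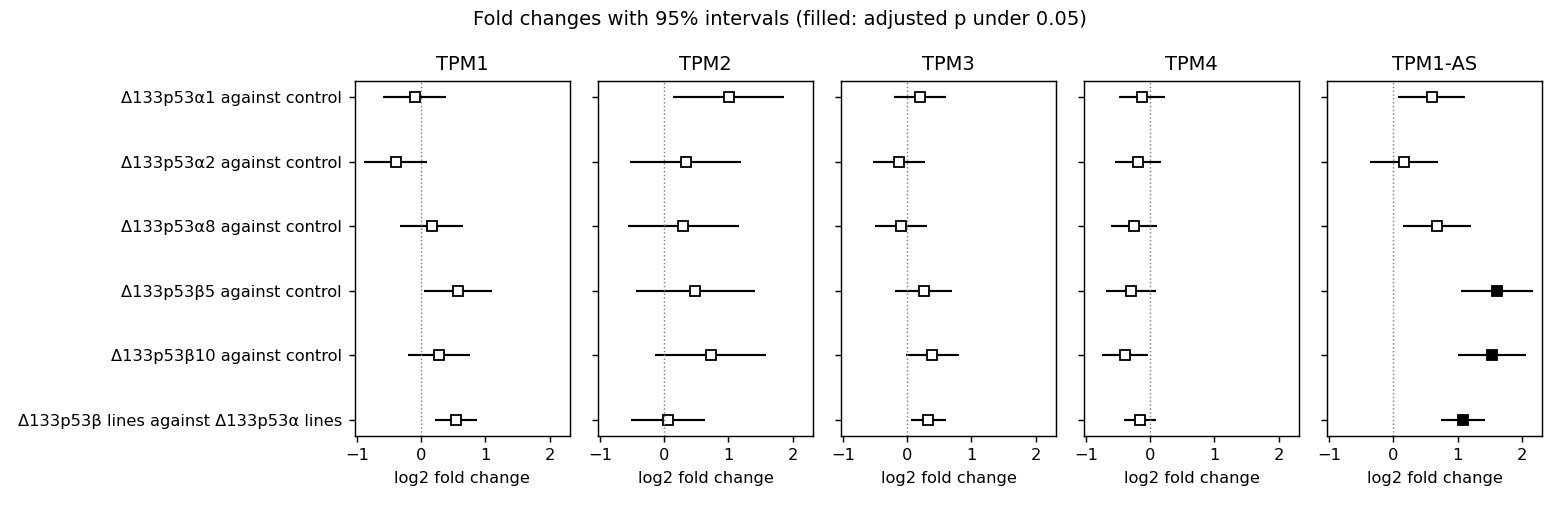
Log2 fold changes (points) with 95% intervals (lines) of the 4 members and TPM1-AS in 6 comparisons from the same fit; filled points have an adjusted p under 0.05. The filled points belong to TPM1-AS in Δ133p53β5, Δ133p53β10 and the comparison of isoforms, and the widest intervals to TPM2.

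TPM1-AS, an antisense gene of the TPM1 locus, rose in both Δ133p53β lines. It was read at 5.599, 6.594, 2.843 and 5.703 CPM in control replicates 1 to 4. It was at 13.07, 16.42 and 18.05 CPM in Δ133p53β5. It was at 15.38, 15.11, 21.18 and 8.431 CPM in Δ133p53β10, and at 12.55 CPM in the library of unsettled clone. All 8 Δ133p53β libraries were above all 4 control libraries. So were all libraries of Δ133p53α1 and Δ133p53α8, while those of Δ133p53α2 overlapped the control. The share of all genes separated in this way was not counted. Of all genes, 7.98% (Δ133p53β5) and 9.82% (Δ133p53β10) passed the test.

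In the Δ133p53α lines TPM1-AS was at 7.883, 8.286, 8.315 and 6.897 CPM in Δ133p53α1. It was at 6.111, 5.292, 5.014 and 6.869 CPM in Δ133p53α2. It was at 7.65, 7.743, 9.491 and 8.39 CPM in Δ133p53α8. A single Δ133p53β library, Δ133p53β10 replicate 4, lay within the range of the Δ133p53α lines.

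The log2 fold change of TPM1-AS against control was 1.61 in Δ133p53β5 (SE 0.269, adjusted p = 0.000604) and 1.53 in Δ133p53β10 (SE 0.255, adjusted p = 0.000451). It was 0.60, 0.17 and 0.68 in Δ133p53α1, Δ133p53α2 and Δ133p53α8 (adjusted p = 0.15, 0.835 and 0.156). The difference between Δ133p53β and Δ133p53α lines was 1.09 (SE 0.165, 95% interval 0.747 to 1.43, adjusted p = 0.000263), past the test and short of the fold threshold. It was 0.97 within the positive and 1.11 within the negative set.

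The ratio of TPM1-AS to TPM1 reads, which library scaling does not touch, was 15.5 to 21.2 per 1000 in the control, 23.9 to 31.8 in Δ133p53α1, 20.7 to 27.7 in Δ133p53α2 and 22.7 to 26.1 in Δ133p53α8. It was 32.6 to 36.3 in Δ133p53β5, 25.4 to 53.8 in Δ133p53β10 and 32.2 in the library of unsettled clone. The means were 17.6 ± 2.63 per 1000 reads in the control, 34.7 ± 1.9 in Δ133p53β5 (n = 3) and 39.7 ± 11.8 in Δ133p53β10 (SD, n = 4 otherwise). The libraries were strand-specific, but the strand setting of the authors' counting is not stated in the sources used here, so reads of TPM1 and TPM1-AS may not be fully separated in the 2645 shared bases.

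**Figure D4:**
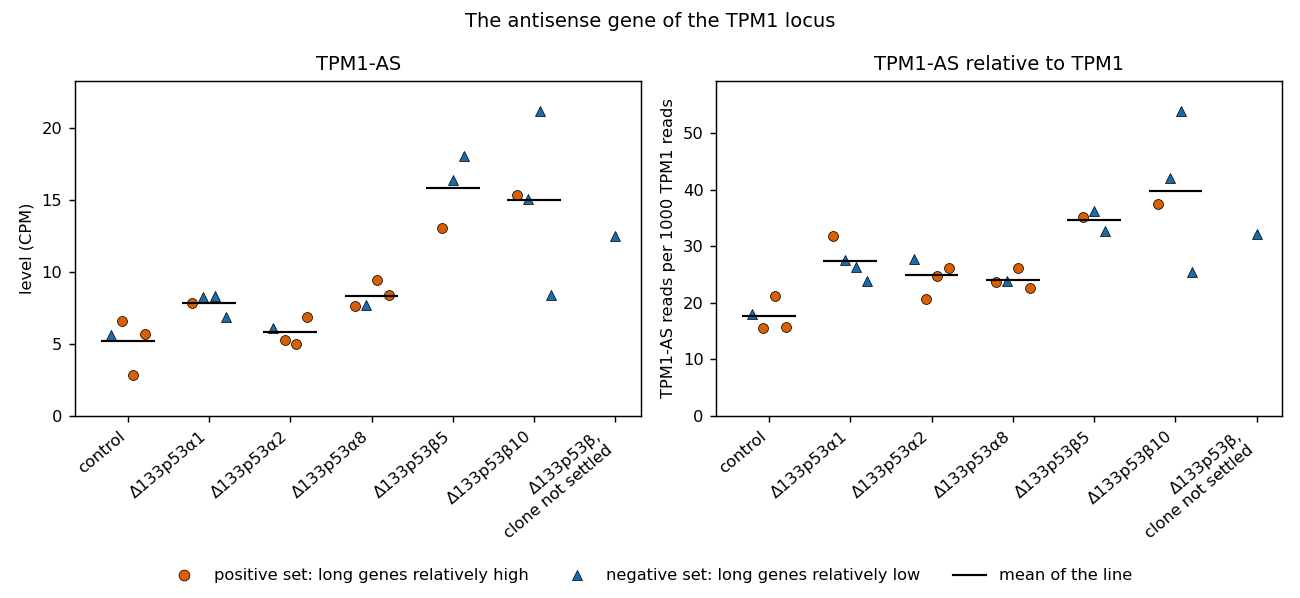
Level of TPM1-AS (CPM, left) and its reads per 1000 TPM1 reads (right) in each of 24 libraries by line, both on linear axes from 0; points are libraries, coloured by library set, and bars are means of a line. The control libraries are lowest in the right panel except for overlap with Δ133p53α2, and the Δ133p53β libraries are highest except for Δ133p53β10 replicate 4.

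The genes whose levels were most like each member over the 24 libraries were picked by Pearson's r of log2 CPM among genes averaging 1 CPM or more. For TPM2 they were ENSG00000275857, a non-coding gene (r = 0.978), SNRNP70 (0.97) and IDH3B (0.968), and after line means were subtracted ENSG00000275857 (0.986), PPP1R7 (0.979) and PPIB (0.978). For TPM1 they were RARS1 (0.871), KPNA2 (0.857) and TAF5 (0.851), and within lines EXOSC3 (0.914), KPNA2 (0.908) and USP39 (0.905). For TPM3 they included GLA (0.92) and HSPE1P2 (0.905), and within lines GLA (0.914), PPIL1 (0.91) and MRPL18 (0.905). For TPM4 the likeness was weaker, with RASSF5 (0.794), TM4SF18 (0.791) and PDE4DIP (0.785), and within lines PDIA3 (0.884), TM4SF18 (0.854) and MPP4 (0.849). The libraries share the split by gene length, so these values are descriptions.

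Between members, r over the 24 libraries was 0.689 for TPM1 with TPM3 and 0.521 for TPM2 with TPM3. It was 0.303 for TPM1 with TPM2, 0.0329 for TPM1 with TPM4, -0.0875 for TPM3 with TPM4 and -0.32 for TPM2 with TPM4. After line means were subtracted, TPM1 with TPM3 stood at 0.721 and TPM1 with TPM4 at 0.518, and control replicate 3, low for 3 of the members, enters each of these values.

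Genes that act with tropomyosin on the filament were counted beside the 4.48% to 9.82% of all genes that passed against control. Of the filament end caps, tropomodulins and leiomodins, 3 of 7 were expressed enough to test, and of the actins 3 of 6; none of either list passed in the 6 comparisons. The actin medians against control on the log2 scale were 0.712, 0.372 and 0.343 for Δ133p53α1, Δ133p53α2 and Δ133p53α8 and 0.484 and 0.5 for Δ133p53β5 and Δ133p53β10, beside medians of -0.0485 to 0.033 over all genes. With the library set as a term the actin medians were 0.428 in Δ133p53α1, 0.231 in Δ133p53β10 and 0.118 in Δ133p53β5. With that term, 1 end cap passed in Δ133p53α2, Δ133p53α8 and Δ133p53β10 and 2 in Δ133p53β5, and 1 in Δ133p53β against Δ133p53α lines, all higher. More of all genes also passed with that term. Of 18295 tested, 2230 passed in Δ133p53α2, 1898 in Δ133p53α8, 2512 in Δ133p53β10, 3199 in Δ133p53β5 and 2107 between isoforms.

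Of 10 myosin II chains and kinases tested, 1 fell in each of Δ133p53α2, Δ133p53α8 and Δ133p53β5: MYH11, the smooth muscle myosin heavy chain, with log2 fold changes of -0.888, -0.999 and -0.913 (adjusted p = 0.045, 0.0254 and 0.0476). The MYH11 calls held in 6, 9 and 7 of 11 alternatives and with 12, 19 and 7 of 24 libraries left out in turn, and those in Δ133p53α2 and Δ133p53β5 were lost when the length and GC trend was removed. Of 16 proteins that bundle or bind the side of filaments, FLNA, the crosslinker filamin A, rose in Δ133p53α1 (0.85, adjusted p = 0.0214) and Δ133p53β10 (0.86, adjusted p = 0.0113), but in neither line in pairwise fits, nor in Δ133p53α1 with no filter on low counts. SYNPO, a synaptopodin, rose in Δ133p53α1 (1.34, adjusted p = 0.00869), and ACTN4, an actinin, fell in Δ133p53β5 (log2 fold change -0.57, adjusted p = 0.0452). The SYNPO call was lost in pairwise fits, and the ACTN4 call held in 5 of 11 alternatives and with 12 of 24 libraries left out, and was lost with the trend removed. Of 19 nucleation and severing genes, ARPC4, a subunit of the Arp2/3 complex, rose in Δ133p53β10 (2.20, SE 0.633, adjusted p = 0.0305), where its libraries ran from 61.1 to 525 CPM. This call was lost with limma and in pairwise fits, and held with 19 of 24 libraries left out.

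Serum response factor and its myocardin-related coactivators drive many actin cytoskeleton genes. Of 11 genes of that list tested, FHL1, a LIM domain protein, fell in each of the 5 lines (adjusted p from 0.0017 to 0.0289). Its log2 fold change was -1.50, -2.14 and -2.19 for clones 1, 2 and 8 of Δ133p53α and -1.70 and -1.73 for clones 5 and 10 of Δ133p53β. The FHL1 call was lost with limma and in pairwise fits in Δ133p53α1 and in pairwise fits in Δ133p53β10, and held with 20 of 24 libraries left out in Δ133p53α1 and Δ133p53β5. TGFB1I1, the focal adhesion protein Hic-5, fell in Δ133p53β5 (log2 fold change -2.73, adjusted p = 0.00878) and Δ133p53β10 (-3.87, adjusted p = 0.000323), from 30 to 121 reads in control libraries to 6 to 13 and 2 to 8. It was also lower in Δ133p53β than in Δ133p53α lines (-4.06, SE 0.443, adjusted p = 4.03e-06). ANKRD1, a nuclear ankyrin repeat protein, rose in Δ133p53β5 (2.36, adjusted p = 0.0474), a call that held in 7 of 11 alternatives and with 8 of 24 libraries left out. The median of the list stayed between -0.0627 and 0.32 on the log2 scale in the 6 comparisons.

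The markers of an epithelial line were present in part. KRT8 and KRT18, keratins of simple epithelia, had 421 to 4360 and 450 to 3360 CPM and VIM, the mesenchymal filament vimentin, 1740 to 5160 CPM, while EPCAM had at most 5 reads, KRT19 at most 4 and CDH1 at most 1. KRT8 rose in all 5 lines, by 2.43, 2.17, 1.58, 1.42 and 1.63 on the log2 scale in the order above. KRT18 rose in Δ133p53α1 (1.89) and Δ133p53α2 (1.49, lost in pairwise fits). The other markers tested, KRT7, VIM and CDH2, passed in none of the 5 lines. The lowest log2 fold change on the list was 0.101, -0.269, -0.641, -0.787 and -0.309 in the same order. The summed list held VIM and CDH2 beside the epithelial genes. It ran from 3927 to 6625 CPM in the control and from 3920 to 11550 CPM in the 5 lines. In the control KRT8 gave 421 to 727 and KRT18 450 to 922 CPM of it, so the sum does not measure epithelial genes alone. Its part in the tropomyosin values was not tested.

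Of 10 fibroblast and smooth muscle markers 3 were tested, COL1A2 and COL3A1 had at most 3 reads, and LUM and MYOCD had 0 in all libraries. The sums were 40.93 to 51.28 CPM in the control and 28.77 to 118.2 CPM in the 5 lines. SMTN, smoothelin, alone had 37.3 to 50 CPM in the control, so the sums are mostly that gene. PDGFRB, a pericyte and fibroblast receptor, fell in Δ133p53α1 (log2 fold change -2.21, adjusted p = 0.00303) and Δ133p53β10 (-1.94, adjusted p = 0.00411, lost in pairwise fits). These calls rest on few reads, 13 to 47 in control libraries, 3 to 8 in Δ133p53α1 and 2 to 9 in Δ133p53β10. SMTN rose in Δ133p53α1 (1.11, adjusted p = 0.0258), a call that held with 18 of 24 libraries left out. Of the 8 troponin genes, the calcium switch that muscle tropomyosin works with, TNNT1 had 498 to 2491 reads and passed in no comparison, except lower in Δ133p53β5 with the library set as a term (log2 fold change -1.10), and the other 7 had at most 10 reads.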

How the data were processed

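The authors made strand-specific poly(A) libraries from 6 H1299 lines, trimmed 100-base reads, aligned them to GRCh38 with HISAT2 and summed them per gene over Ensembl exons with featureCounts. How strand was set and how reads with several positions were treated is not given in the sources used here. The authors deposited whole-number read counts per gene without normalization, in 1 table of 60564 rows, of which 1 had no name and held 0 reads.

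Lines were taken from the labels. The label and the table column of 1 Δ133p53β library name different clones, so it formed a group of its own in the fit. Counts were tested in R 4.3.3 with edgeR 4.0.16: TMM scaling, the filterByExpr filter (18295 genes kept), 1 quasi-likelihood fit (17 residual degrees of freedom) and p-values adjusted by Benjamini-Hochberg within each comparison, over every gene tested. A gene passed at an adjusted p under 0.05, and the study's call also asks for a log2 fold change of at least 1.5. The SE is the fold change over the square root of the F statistic. The study states DESeq2's Wald test, which was run as an alternative with DESeq2 1.42.0, as was limma 3.58.1 with voom. CPM and RPKM were computed here from the counts, and log2 CPM used a prior count of 2. Exon lengths, GC contents (of the longest transcript of a gene) and overlaps came from GENCODE v44, and 98.6% of genes tested had a length. The length of the canonical transcript was added as a second scale after the exon lengths had been seen. The library sets and the trend with length and GC used the length of all annotated exons. Promoter windows came from RefSeq.

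The 4 members and the gene lists were chosen with earlier results of these data known. Named were the 4 members, TPM1-AS and the TPM3 and TPM4 copies, up to 3 members of each other list with the smallest adjusted p in a comparison, and the 3 genes most like each member over all libraries and within lines. Of the genes most like TPM3 over all libraries, 1 is not reported here. Markers outside that rule were named for their levels. All totals lay between 21531599 and 25381731 reads, and the 33 pairs of libraries of 1 line differed by more than counting noise (a chi-square of at least 15.8 per degree of freedom). On simulated counts for Δ133p53α1 against control (17953 genes tested), 41 of 66 genes changed by 2 on the log2 scale were recovered, 16 of 67 changed by 1 and 1 of 67 changed by 0.5, with 4 false calls. The alternatives were another scaling (RLE), 2 other filters, DESeq2, limma, pairwise fits, a replicate block, both placements of the unsettled library, the library set as a term, removal of each library's trend with length and GC, and each library left out.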

Additional observations from a re-analysis of the deposited data

Results flagged for a closer look

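TPM2 stood at 480.3 CPM in Δ133p53α2 replicate 1, against 198.9 to 231.9 CPM in the other 3 libraries of that line, a gap of 0.883 of the line's range, which is above Dixon's limit for 4 libraries. It was the only one of 25 groups of 4 libraries, over the 4 members and TPM1-AS, to pass that limit, and about 1 in 20 such groups does so by chance, so 1 of 25 is about the number chance gives. That TPM2 varies between libraries of a line was known when the members were chosen, so this restates the spread described above. This library was the single one of its line in which long genes were relatively low.

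TPM1-AS differed between the isoforms, with a log2 fold change of 1.09 for Δ133p53β against Δ133p53α lines (edgeR, adjusted p = 0.000263). Over the alternatives the value lay between 1.05 and 1.09 with adjusted p-values of at most 0.00199, and over the left-out libraries between 0.979 and 1.19. It rests on 2 clones against 3.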

How the results depend on the processing

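Of 304 values of the members under other settings, 293 kept their direction and their side of the threshold, and of 672 values with 1 library left out 659 did. TPM1 in Δ133p53β against Δ133p53α lines passed the test with DESeq2 (0.538), pairwise fits (0.534), the library set as a term (0.523), the length and GC trend removed (0.67) and the unsettled library counted in Δ133p53β5 (0.508) or Δ133p53β10 (0.542), with adjusted p-values from 0.00449 to 0.0467. It did not pass with the other 5 settings. The value with the trend removed rests on the length of all TPM1 exons, not of the canonical transcript. Left-out libraries gave 0.458 to 0.603, and it passed without control replicate 2 (adjusted p = 0.0423) or replicate 3. The adjusted p for TPM1 among all lines was 0.031 with DESeq2 and 0.00646 to 0.266 over left-out libraries.

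TPM1 in Δ133p53α1 turned positive with the trend removed (0.289) and with limma (0.0154), TPM4 in Δ133p53α1 with the trend removed (0.166), and TPM2 between isoforms turned negative with the library set as a term (-0.199); none of these passed. Left-out libraries gave ranges that cross 0 for TPM1 in Δ133p53α1 (-0.35 to 0.0946) and Δ133p53α8 (-0.0881 to 0.357), TPM2 in Δ133p53α2 (-0.0733 to 0.657) and between isoforms (-0.203 to 0.195), TPM3 in Δ133p53α2 (-0.323 to 0.0012) and Δ133p53α8 (-0.289 to 0.0357), and TPM1-AS in Δ133p53α2 (-0.0365 to 0.303). They gave -0.644 to -0.199 for TPM1 in Δ133p53α2 and 0.82 to 1.33 for TPM2 in Δ133p53α1. TPM1-AS passed in Δ133p53α8 with the trend removed (0.801, adjusted p = 0.0483). The cause of these shifts was not tested.

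A replicate block moved TPM1 between isoforms to 0.555 (adjusted p = 0.0819) and changed no call of a member or of TPM1-AS; among the other named genes it ended the calls of ACTN4, ANKRD1, ARPC4 and SMTN, of FHL1 in Δ133p53α1, KRT8 in Δ133p53β5, KRT18 in Δ133p53α2 and MYH11 in Δ133p53α2 and Δ133p53β5. Replicate numbers did not pair the libraries: correlations of same-numbered deviations ran from -0.917 to 0.926, and 6 of 23 libraries matched best with their own number.

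Of 31 calls of genes on the lists, 15 held in all alternatives and 17 with each library left out. Counts over all genes moved by more than 1.5 times. Among all lines 1841 genes passed, against 3717 with DESeq2, 3719 with the library set and 2818 with the trend removed. Pairwise fits gave 417, 341, 450 and 499 in Δ133p53α1, Δ133p53α2, Δ133p53α8 and Δ133p53β10, against 891, 971, 819 and 1797. DESeq2 gave 1771, 1304 and 2856 in Δ133p53α1, Δ133p53α8 and Δ133p53β10 and 1355 between isoforms, against 863. The library set gave 2230, 1898 and 3199 in Δ133p53α2, Δ133p53α8 and Δ133p53β5 (1460 without) and 2107 between isoforms. The trend removed gave 1914, 1598, 1234 and 3441 in the 3 Δ133p53α lines and Δ133p53β10 and 1331 between isoforms. Left-out libraries gave 448 to 4264 genes in Δ133p53α1 (highest without its replicate 1), as few as 638 in Δ133p53α2 (without control replicate 2), 501 in Δ133p53α8 (without its replicate 4), 635 in Δ133p53β5 and 505 between isoforms (without Δ133p53β5 replicate 3), and 1070 (without control replicate 3) to 3043 (without its replicate 1) in Δ133p53β10. With 3 or 4 libraries a line, a difference that missed the threshold is not shown to be absent.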
